A study of Mus musculus with 2 samples.

Results

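The 10 genes described here encode endothelial G protein-coupled receptors or the accessory proteins that one of them needs. They are *S1pr1*, *Calcrl* with its partners *Ramp2* and *Ramp3*, *Adgrl4*, *Adgrf5*, *Lpar4*, *Lpar6*, *Adora2a* and *Gpr182*. The genes were listed by symbol, and all 10 had a row in both libraries, out of 19813 genes with a row in both. Retinal cells of wild-type C57BL/6 mice at postnatal day 6 (P6) and postnatal day 15 (P15) were sorted by FACS as CD31+CD45- cells, with CD31 marking endothelium and CD45 marking blood cells. They were sequenced by the 10x droplet method as 1 library per age, without a genetic change or treatment at either age. Age and library therefore cannot be told apart, no test across samples was possible, and every interval below is a 95% interval of counting error only. How many mice gave each library is not given in the sources used here.

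G protein-coupled receptors span the membrane and, on binding a ligand, switch on heterotrimeric G proteins that set cyclic AMP, calcium or small GTPase activity in the cell. In endothelium, receptors for the blood lipids sphingosine-1-phosphate (S1P) and lysophosphatidic acid (LPA), for the peptide adrenomedullin and for adenosine act on junctions, sprouting and vessel tone. The retinal vessels of the mouse grow after birth, as a plexus that spreads over the inner retina in the first days and then sends branches into deeper layers, so P6 and P15 sample a spreading and a later, maturing network.

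Levels are counts of unique molecular identifiers (UMIs), each standing for 1 captured mRNA, given as UMIs of the gene for every 1000000 UMIs counted in those cells (CPM). CPM were not divided by transcript length, so a level is compared between cells for 1 gene and never between genes. Library levels rest on 1424 cells at P6 and 1644 cells at P15 that pass a filter by the study's stated criteria. These cells held 7648189 and 7371443 UMIs in all, with a median of 4986 and 4214 UMIs per cell. By cluster, levels are given over 1560 P6 cells and the 438 P15 cells whose labels were at hand. Of these, 1399 and 409 pass the filter, which thus does not return the study's own set of cells. The study's names for the clusters are Arterial, Cap-Arterial, Capillary, Cap-Venous, Venous, Tip, Stalk, Primitive and Proliferative. At P15, the Proliferative, Venous and Arterial labels held 14, 2 and 11 of these cells and are left out except where named, which leaves 6 clusters with both ages. Ratios of P15 to P6 within clusters were not computed over all genes. Counts of clusters by direction therefore stand without a share of all genes beside them. The 10 endothelial markers checked, among them *Pecam1* and *Cdh5*, were above 0 in both libraries and summed to 9835 CPM at P6 and 15299 CPM at P15. A list of 10 pericyte and smooth muscle markers summed to 30.1 CPM at P6, with *Cspg4* at 0, and to 348 CPM at P15, with none at 0. Neural and photoreceptor markers summed to 25.8 CPM at P6 and 103 CPM at P15, with *Neurod1* at 0 by the filter. Markers of Mueller glia and astrocytes summed to 683 and 1851 CPM (7 and 8 genes with a row), of red blood cells to 22.6 and 173 CPM, and of microglia and other immune cells to 2.62 and 6.78 CPM. The glial list holds *Apoe* and *Clu*, which the study lists among venous and arterial endothelial genes. At P6 its sum was highest in Cap-Arterial cells (2114 CPM) and Arterial cells (1908 CPM), with *Slc1a3*, *Gfap* and *Dkk3* at 0 in both. Ribosomal protein genes took 18.2% of the UMIs at P6 and 10.5% at P15. Their share was also lower at P15 within each of the 6 clusters with both ages, in Stalk cells 18.0% and 9.67%. Its part in the ratios within clusters was not tested. The libraries shared 7 barcodes, none of them labelled in both.

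*S1pr1*, *Adgrl4* and *Lpar6* stood at least 1.5-fold higher at P15 than at P6, and *Gpr182* at least 1.5-fold lower. This fold was the limit used for calling a gene, among genes with at least 50 UMIs over both libraries, which all 10 passed. Of 10972 such genes, 18.8% lay at least 1.5-fold higher at P15 and 11.8% at least 1.5-fold lower, beside 3 and 1 of the 10. The median ratio of P15 to P6 was 1.29 over the 10 genes and 1.09 over all genes tested, a shift of 0.12 on the log2 scale. Scaling by the median of gene ratios, or leaving mitochondrial and ribosomal protein genes out of the total, removed this shift and moved the shares of all genes to 13.9% higher and 15.3% lower, or to 13.5% and 15.6%. The same 4 genes were past 1.5-fold under both. Each cell held UMIs of a median of 4 of the 10 genes at both ages, and 5 P6 cells and 3 P15 cells held none of them.

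**Figure D1:**
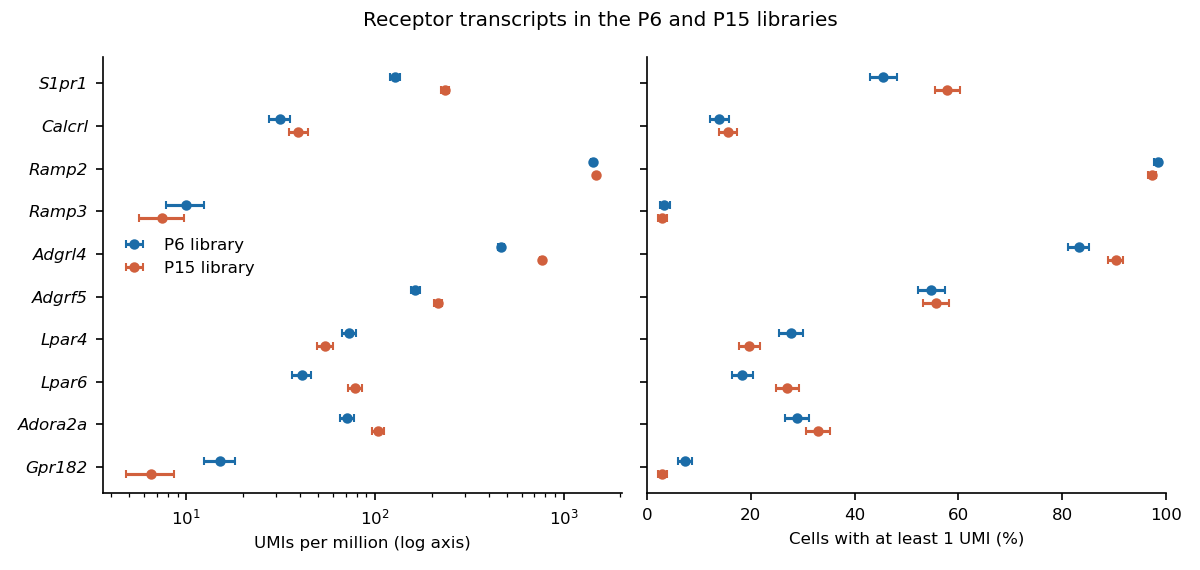
Level of each gene in CPM on a log axis (left) and percentage of cells with at least 1 UMI (right), for the P6 library (blue) and the P15 library (orange), with bars giving the 95% interval of counting error. The points of *S1pr1*, *Adgrl4* and *Lpar6* lie further right at P15, those of *Gpr182* further left, and those of *Ramp2* nearly coincide.

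*S1pr1* is the main receptor for S1P on endothelial cells, couples to Gi and is known for holding junctions together and restraining sprouting once blood flows. The gene lies at chr3:115710433-115715072 on the minus strand (GRCm38). Its level was 128 CPM (120 to 136) at P6 and 235 CPM (224 to 246) at P15, a ratio of 1.84 (1.698 to 1.989). Cells with at least 1 UMI were 45.5% at P6 and 57.9% at P15, against 2.17% of 46 and 10.0% of 50 unlabelled barcodes with pericyte or neural markers and without a UMI of *Pecam1* or *Cdh5*. Both levels were thus far above those barcodes. With every cell thinned to 2000 UMIs, the shares were 22.3% of 1411 cells and 33.7% of 1472 cells.

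Among P6 clusters, *S1pr1* was lowest in Primitive cells at 64.8 CPM (49.5 to 83.2), and its interval lay below those of all other clusters. The highest values were 207 CPM in Arterial cells (149 to 282), 178 CPM in Capillary cells (144 to 218) and 165 CPM in Cap-Arterial cells (139 to 195), with overlapping intervals. Cap-Venous and Stalk cells held 110 CPM and 108 CPM. The arterial end of the network thus lay above its venous capillaries, with Tip cells (135 CPM), Proliferative cells (131 CPM) and Venous cells (127 CPM) between. At P15, Capillary cells at 397 CPM (286 to 537) and Cap-Arterial cells at 347 CPM (284 to 420) were again high and Primitive cells at 88.8 CPM (44.3 to 159) again lowest. Between them, Stalk cells held 253 CPM, Cap-Venous cells 224 CPM (192 to 260) and Tip cells 211 CPM, an order opposite to that at P6, with overlapping intervals at both ages. The ratio of P15 to P6 was above 1 in 6 of 6 clusters, from 1.37 in Primitive cells (0.65 to 2.63) to 2.35 in Stalk cells (1.81 to 3.05). Within Primitive cells the interval included 1.

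*Calcrl* is the receptor that binds adrenomedullin or CGRP, and only together with an accessory protein of the RAMP family, which decides the ligand. *Calcrl* lies at chr2:84330626-84425411 on the minus strand. Its level over all cells was 31.4 CPM (27.5 to 35.6) at P6 and 39.3 CPM (34.9 to 44.1) at P15, a ratio of 1.25 (1.05 to 1.49) that is under the 1.5-fold limit. Its UMIs were in 13.97% of P6 cells and 15.57% of P15 cells, with 3 of 46 and 4 of 50 of the barcodes with pericyte or neural markers holding one. The intervals of these barcode shares, 1.37 to 17.9% and 2.22 to 19.2%, include the shares of cells. Those of the barcode levels, 2.43 to 34.5 CPM and 6.27 to 58.9 CPM, include the levels over all cells. *Calcrl* over all cells was thus not shown to be above background at either age. The small difference between the ages over all cells hid larger ones of opposite direction between clusters.

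At P6, *Calcrl* was highest at the arterial end, with 70.9 CPM in Arterial cells (38.7 to 119) and 69.4 CPM in Cap-Arterial cells (52.7 to 89.7). Venous cells followed at 42.2 CPM (21.8 to 73.7), an interval that overlaps both, and Cap-Venous cells held 22.9 CPM (17.5 to 29.4). Primitive cells had 8 UMIs of *Calcrl*, 8.49 CPM (3.67 to 16.7). At P15, the value was 33.0 CPM in Cap-Arterial cells (15.8 to 60.7), 53.7 CPM in Cap-Venous cells (38.5 to 72.8) and 104 CPM in Capillary cells (51.9 to 186). Cap-Arterial cells were thus lower at P15, at 0.48 times the P6 level (0.22 to 0.94), while Cap-Venous cells were 2.34 times higher (1.54 to 3.54) and Capillary cells 3.02 times higher (1.29 to 6.76). None of the 11 labelled P15 Arterial cells held a *Calcrl* UMI, which allows a level of up to 61.1 CPM. Labels were then predicted for the passing cells without one, and given labels were kept. Cap-Arterial cells were so at 0.59 times the P6 level (0.40 to 0.89, 267 P15 cells) and Arterial cells at 0.28 (0.067 to 0.88, 42 P15 cells). Cap-Venous cells were at 1.59 (1.15 to 2.23, 621 P15 cells) and Capillary cells at 2.05 (0.97 to 4.25, 86 P15 cells), the last with an interval that includes 1. In all 4 clusters the P15 value lay on the same side of P6 with either set of labels. The 2 sets share the labelled cells that pass the filter, so this is no separate check.

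*Ramp2* makes *Calcrl* a receptor for adrenomedullin and is known to be needed for the integrity of vessels. *Ramp2* lies at chr11:101246028-101259546 on the plus strand, where its end overlaps *Vps25* on the same strand, which was listed with 4 UMIs at P6 and 15 at P15. *Ramp2* was measured at 1430 CPM (1403 to 1457) at P6 and 1493 CPM (1465 to 1521) at P15, a ratio of 1.04 (1.02 to 1.07). Its direction turned with the scaling, to 0.96 with the median of gene ratios and to 0.95 without mitochondrial and ribosomal protein genes in the total. *Ramp2* UMIs were found in 98.5% of P6 cells and 97.4% of P15 cells, and in 43.5% and 42.0% of the barcodes with pericyte or neural markers, where the level was 106 CPM at P6 and 190 CPM at P15. Nearly all endothelial cells thus held *Ramp2* at both ages.

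The *Ramp2* level was highest in P6 Capillary cells at 2131 CPM (2007 to 2260), 1.62 times that of the other labelled cells, and lowest in Primitive cells at 1040 CPM (976 to 1108). P6 Capillary cells also had the fewest UMIs per cell of the P6 clusters, a median of 3204, and the highest mitochondrial share, 2.51%. At P15, Capillary cells held 1589 CPM (1358 to 1848) and Primitive cells 1622 CPM (1406 to 1863), so the gap between these clusters seen at P6 was not found at P15. Of the cells with a *Calcrl* UMI, 197 of 199 at P6 and 252 of 256 at P15 also held *Ramp2*.

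*Ramp3* forms a second adrenomedullin receptor with *Calcrl* and is known for sorting that receptor after it is taken up into the cell. It lies at chr11:6658521-6677475 on the plus strand, with the pseudogene *Gm11978* overlapping on the minus strand. Over all cells *Ramp3* had 76 UMIs at P6, 9.94 CPM (7.83 to 12.4), and 55 UMIs at P15, 7.46 CPM (5.62 to 9.71), and the interval of the ratio, 0.52 to 1.08, included 1. The 3.30% of P6 cells with a *Ramp3* UMI were fewer than the 10.9% of the barcodes with pericyte or neural markers. At P15 they were 2.86% of cells against 2 of 50 barcodes. The library-wide share of *Ramp3* was thus not shown to be above that of those barcodes. At P6 the barcodes with a *Ramp3* UMI were 4 of 41 neural and 1 of 5 pericyte ones. At P15 they were 2 of 6 neural and 0 of 44 pericyte ones. Whether these UMIs are background or expression by those cells was not tested.

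Among the P6 clusters, *Ramp3* was highest in Cap-Arterial cells. They held 34 of the 86 *Ramp3* UMIs of labelled cells in 15 of 162 cells, with at most 6 in 1 cell, which gives 40.7 CPM (28.2 to 56.8). Every other P6 cluster lay between 3.83 and 9.97 CPM, with intervals below that of Cap-Arterial cells except in Arterial cells, where 1 UMI gave an upper bound of 28.2 CPM that just overlaps. The ratio to the other labelled cells was 6.89 (4.33 to 10.8). Set against the barcodes with pericyte or neural markers, Cap-Arterial cells did not stand apart, with 9.26% of cells holding a UMI against 10.9% of barcodes, and with an interval that overlaps the 19.7 CPM (6.38 to 45.9) of those barcodes. At P15 the Cap-Arterial value was 19.8 CPM (7.27 to 43.1) from 6 UMIs in 68 cells, 3.64 times the other labelled cells (1.09 to 11.1). As a share of *Ramp2* and *Ramp3* UMIs together, which does not depend on scaling, *Ramp3* made up 2.35% (1.63 to 3.26) in P6 Cap-Arterial cells, 0.339% (0.180 to 0.578) in P6 Cap-Venous cells and 0.690% (0.544 to 0.863) over all P6 cells. *Calcrl* and *Ramp3* were thus both at their highest or near it in P6 Cap-Arterial cells, and 9 of 199 P6 cells with a *Calcrl* UMI also held *Ramp3*, 4.52% (2.09 to 8.41), against 38 of 1225 cells without one, 3.10% (2.20 to 4.23).

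**Figure D2:**
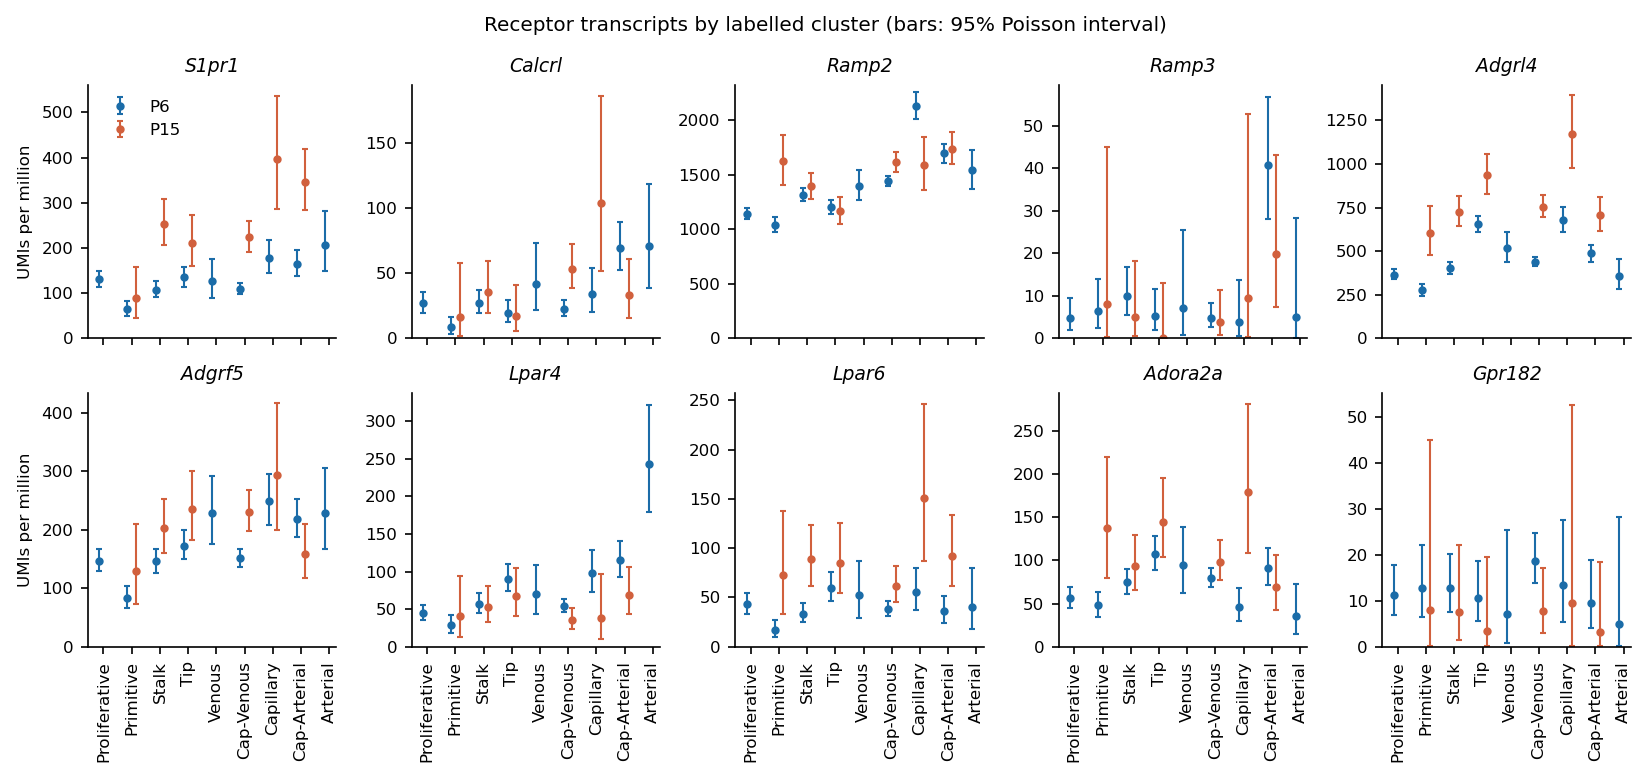
CPM of each gene (vertical axes, from 0, a scale for each gene) in the labelled clusters (horizontal axes) of the P6 library (blue) and the P15 library (orange), with 95% Poisson intervals, for clusters with at least 30 labelled cells. *S1pr1*, *Adgrl4* and *Lpar6* lie higher at P15 in each cluster with both ages, *Calcrl* does so in Cap-Venous and Capillary cells but not in Cap-Arterial cells, *Lpar4* peaks in P6 Arterial cells, and *Ramp3* in P6 Cap-Arterial cells.

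The LPA receptors *Lpar4* and *Lpar6* lay on opposite sides of 1 between the ages. Both couple to G12 and G13 and are known for acting together in the sprouting of retinal vessels. *Lpar4*, at chrX:106920625-106933900 on the plus strand, was at 73.1 CPM (67.2 to 79.4) at P6 and 54.4 CPM (49.2 to 60.0) at P15, a ratio of 0.74 (0.65 to 0.85). *Lpar6*, at chr14:73237895-73243294 on the plus strand, was at 40.9 CPM (36.5 to 45.7) at P6 and 78.3 CPM (72.0 to 84.9) at P15, a ratio of 1.91 (1.66 to 2.20). Of the UMIs of both genes together, *Lpar4* made up 64.1% (60.8 to 67.3) at P6 and 41.0% (37.9 to 44.2) at P15, and over every barcode without a filter 59.7% and 43.5%. This share needs no scaling between libraries, and its intervals do not overlap. *Lpar6* lies within the span of *Rb1*, which runs on the opposite strand and had 69 UMIs at P6 and 63 at P15.

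Cells with a UMI of *Lpar4* were 27.7% at P6 and 19.7% at P15, or 13.3% and 10.1% after thinning to 2000 UMIs. For *Lpar6* the shares were 18.3% and 27.0%, or 9.14% and 13.04% after thinning. In the barcodes with pericyte or neural markers, *Lpar4* was found in 2 of 46 at P6 and 2 of 50 at P15, and *Lpar6* in 8.70% and 6.0%. The thinned P6 share of *Lpar6* is thus close to the unthinned share of those barcodes, which had a median of 4104 UMIs. The unthinned P6 share of *Lpar6*, 18.3%, also lies within the interval of that barcode share, 2.42 to 20.8%. Its P6 level of 40.9 CPM lies within that of the barcodes, 6.38 to 45.9 CPM. *Lpar6* was thus not shown to be above background at P6.

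The *Lpar4* level was highest in Arterial cells at P6, at 243 CPM (179 to 322), 3.86 times the other labelled cells (2.81 to 5.18). It came from 48 UMIs in 17 of 40 cells, with at most 8 in 1 cell. Cap-Arterial cells followed at 115 CPM (93.0 to 140), Capillary cells at 97.5 CPM (72.6 to 128) and Tip cells at 90.3 CPM (73.5 to 110), and these 3 did not differ beyond their intervals. Cap-Venous cells held 54.5 CPM (46.0 to 64.1), Proliferative cells 44.8 CPM (35.2 to 56.1) and Primitive cells 28.7 CPM (18.9 to 41.7). At P15 the order at the arterial end was less marked, with 69.4 CPM in Cap-Arterial cells (42.9 to 106), 66.9 CPM in Tip cells (40.3 to 104) and 35.4 CPM in Cap-Venous cells (23.3 to 51.4). Labelled P15 Arterial cells held 2 UMIs of *Lpar4* in 11 cells. The 42 passing P15 cells that were Arterial by a given or predicted label held 14, 77.0 CPM (42.1 to 129). This was 0.30 times the P6 level with predicted labels (0.15 to 0.56).

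*Lpar6* had another order, and Tip cells led it at P6 with 59.9 CPM (46.4 to 76.0), 1.60 times the other labelled cells (1.21 to 2.09). Arterial cells, with 40.5 CPM (17.5 to 79.8), did not stand apart, and Primitive cells were lowest at 17.0 CPM (9.71 to 27.6). Within clusters *Lpar6* was higher at P15 in 6 of 6, from 1.41 times in Tip cells (0.85 to 2.28) to 4.28 times in Primitive cells (1.67 to 10.3), and *Lpar4* was higher in 1 of 6. With predicted labels over 8 clusters, *Lpar6* was higher in 7, the exception being Proliferative cells at 0.81 (0.28 to 1.91), and *Lpar4* in 1. The *Lpar4* share was 85.7% (73.8 to 93.6) in P6 Arterial cells, 76.2% (67.8 to 83.3) in P6 Cap-Arterial cells and 51.0% (42.7 to 59.4) in P6 Proliferative cells, and at P15 it was 42.9% (28.8 to 57.8) in Cap-Arterial cells, 36.5% (25.6 to 48.5) in Cap-Venous cells and 4 of 20 UMIs, or 5.73 to 43.7%, in Capillary cells.

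*Adgrl4* and *Adgrf5* are adhesion receptors, whose long outer part is cut from the membrane part as the protein matures. *Adgrl4*, also called *Eltd1*, is known as a gene of sprouting endothelium, and *Adgrf5* as a receptor that acts with it in vessel development. *Adgrl4*, at chr3:151437887-151545086 on the plus strand, was at 465 CPM (450 to 480) at P6 and 769 CPM (749 to 789) at P15, a ratio of 1.66 (1.59 to 1.73). Its UMIs were in 83.2% of P6 cells and 90.3% of P15 cells (57.2% and 77.5% after thinning), against 3 of 46 and 10 of 50 barcodes with pericyte or neural markers. Under the scaling alternatives the ratio was 1.51 and 1.52, just past the limit.

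Capillary cells, at 677 CPM (608 to 751), and Tip cells, at 654 CPM (608 to 703), had the highest *Adgrl4* levels at P6, with overlapping intervals. Venous cells followed at 520 CPM (440 to 611), Cap-Arterial cells at 487 CPM (441 to 537), and Arterial cells stood at 359 CPM (281 to 453) and Primitive cells at 275 CPM (243 to 311). P15 kept Capillary cells, at 1173 CPM (975 to 1398), and Tip cells, at 936 CPM (827 to 1056), at the top. In every one of the 6 clusters with both ages the P15 level was higher with an interval above 1, from 1.43 times in Tip cells (1.24 to 1.65) to 2.20 times in Primitive cells (1.68 to 2.86). How many of all genes do so was not counted.

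*Adgrf5*, at chr17:43360451-43459557 on the plus strand, was at 164 CPM (155 to 173) at P6 and 216 CPM (206 to 227) at P15, a ratio of 1.32 (1.23 to 1.42), and its cells were 54.8% and 55.7%, against 4 of 46 and 8 of 50 barcodes with pericyte or neural markers. A small nuclear RNA gene, *Gm25135*, lies within it on the same strand and had 1 UMI at P15. P6 Capillary cells held 249 CPM (208 to 295), 1.60 times the other labelled cells, and Venous, Arterial and Cap-Arterial cells held 229, 228 and 218 CPM, so these 4 did not differ beyond their intervals. Primitive cells were lowest at 82.8 CPM (65.5 to 103). Cap-Venous cells were 1.52 times higher at P15 (1.27 to 1.82), while labelled Cap-Arterial cells were at 0.73 times the P6 level (0.52 to 1.01) and those with predicted labels at 1.04 (0.85 to 1.28), so the direction there turned with the labels.

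*Adora2a* encodes an adenosine receptor that couples to Gs and raises cyclic AMP. It lies at chr10:75316877-75334784 on the plus strand. Its level was 71.1 CPM (65.3 to 77.4) at P6 and 104 CPM (96.3 to 111) at P15, a ratio of 1.46 (1.302 to 1.627), just under the 1.5-fold limit. Cells with a UMI were 28.9% and 32.9%, or 12.8% and 17.2% after thinning. Tip cells had 107 CPM (88.9 to 128) at P6, 1.55 times the other labelled cells (1.26 to 1.89), with intervals that overlap those of Venous cells (62.5 to 138) and Cap-Arterial cells (71.6 to 114). At P15, Tip cells held 144 CPM (104 to 196). Capillary cells held 45.9 CPM (29.4 to 68.3) at P6 and 180 CPM (108 to 281) at P15, 3.92 times higher (2.03 to 7.46), and with predicted labels 3.32 times higher (1.90 to 5.84). Arterial cells held 7 UMIs at P6, 35.4 CPM (14.2 to 73.0), 0.48 times the other labelled cells (0.19 to 0.99). This low value was not kept by thinning, which gave a ratio of 0.88.

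*Adora2a* was also found outside endothelium. In the 44 P15 barcodes with pericyte markers and without *Pecam1* or *Cdh5*, 19 barcodes held 28 *Adora2a* UMIs, 176 CPM (117 to 254), which lies above the interval of the endothelial cells of the same library. *S1pr1* is the reverse case, with 5 UMIs in the 50 P15 barcodes with pericyte or neural markers, 28.8 CPM (9.34 to 67.1). At P6 only 5 barcodes had pericyte markers, and they held 1 *Adora2a* UMI. Of the 44 P15 barcodes, 5 passed the filter, and 38.5% of passing P15 cells held a UMI of the pericyte list, against 9.83% at P6. Without the cells that held one, *Adora2a* stood at 69.0 CPM at P6 and 100.2 CPM at P15, a ratio of 1.45. The part of pericyte RNA in the *Adora2a* levels was not tested.

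*Gpr182* is an atypical receptor that takes up chemokines rather than signalling through G proteins, and it is best known from sinusoidal and lymphatic endothelium. The gene lies at chr10:127747276-127751732 on the minus strand, where *Zbtb39* overlaps it on the plus strand with 8 UMIs at P6 and 14 at P15. *Gpr182* had 115 UMIs at P6, 15.04 CPM (12.41 to 18.05), and 48 UMIs at P15, 6.51 CPM (4.80 to 8.63), a ratio of 0.43 (0.30 to 0.61). Its cells were 7.30% at P6 and 2.86% at P15, or 3.54% and 1.36% after thinning. No *Gpr182* UMI was found in the 46 P6 barcodes with pericyte or neural markers, a share with an interval of 0 to 7.71% that includes the 7.30% of P6 cells. Of the 50 P15 barcodes, 1 had a *Gpr182* UMI. The share of cells was thus not shown to be above background at either age.

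Cap-Venous cells held 50 of the *Gpr182* UMIs of labelled P6 cells, 18.8 CPM (13.9 to 24.8), and were 1.66 times the other labelled cells (1.14 to 2.40). Venous cells had 2 UMIs and Arterial cells 1, so the value of those clusters could not be told from that of Cap-Venous cells. Thinning to 2000 UMIs did not keep this difference. One random draw gave a ratio of 1.03, and in another draw 12 UMIs in 413 Cap-Venous cells gave 14.5 CPM, beside 20.3 CPM in Proliferative and 15.5 CPM in Stalk cells. The P15 value was lower in 6 of 6 labelled clusters with both ages, from 0.33 to 0.71 times the P6 level. It rests on 1 UMI each in P15 Primitive, Tip, Capillary and Cap-Arterial cells, 3 in Stalk cells and 6 in Cap-Venous cells. Among these clusters the interval was below 1 in Cap-Venous cells only, at 0.42 (0.15 to 0.98). Of the clusters left out, Proliferative cells held 2 UMIs at P15, a ratio of 1.62 (0.18 to 6.7), and Venous and Arterial cells held 0. Markers of lymphatic endothelium summed to 50.9 CPM at P6 and 36.5 CPM at P15, over 5 genes with a row at P6 and 3 at P15. In P6 Primitive, Venous, Capillary and Arterial cells, the only one of them above 0 was *Flt4*, which the study lists among venous genes.

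**Figure D3:**
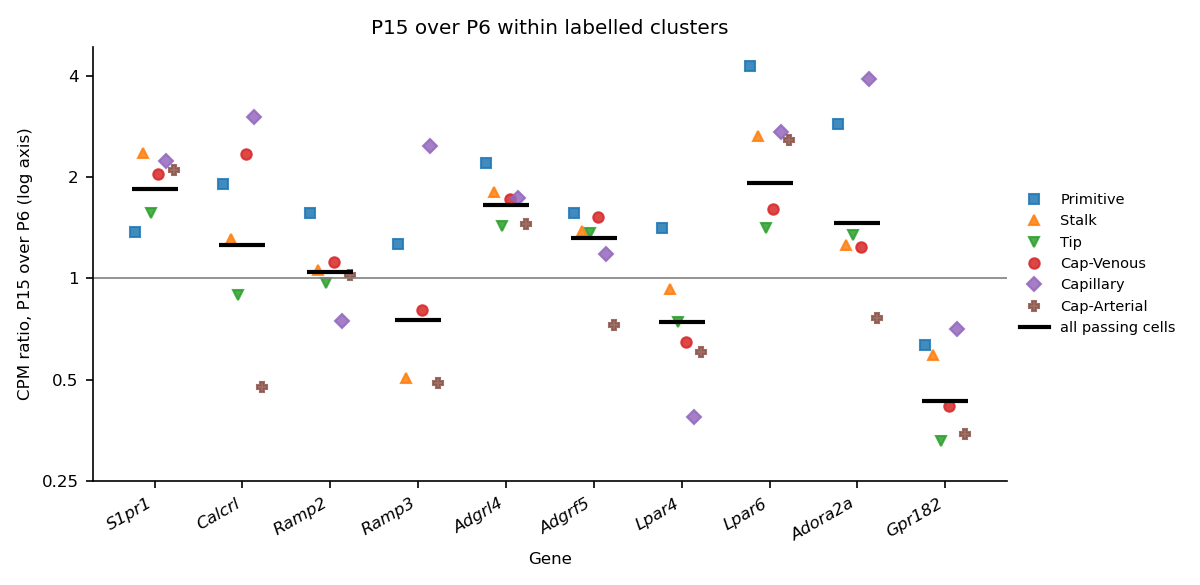
Ratio of the level at P15 to that at P6 (vertical axis, log scale) for each gene within 6 labelled clusters (symbols) and over all passing cells (black lines). *S1pr1*, *Adgrl4* and *Lpar6* lie above 1 in all 6 clusters and *Gpr182* below 1 in all 6, and the point of *Ramp3* in Tip cells, with 0 UMIs at P15, is not drawn.

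Read by cluster at P6, 14 of the 90 pairs of gene and cluster were at least 1.5-fold higher than the other labelled cells and 18 at least 1.5-fold lower. Over all 9834 genes tested, the share by cluster ran from 3.25% to 24.4% higher and from 7.96% to 43.1% lower. The clusters were made from these same cells, so the ratios describe them and are no test. Primitive cells were lower for 7 of the 10 genes and higher for none, where 43.1% of 9834 genes were lower and 5.65% higher. Their median ratio was 0.55 over the 10 genes and 0.74 over all genes, and their ribosomal share, 23.8%, was the highest of the P6 clusters. The 3 genes not called there were *Ramp2*, *Ramp3* and *Gpr182*.

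Capillary cells were higher for *Ramp2*, *Adgrl4*, *Adgrf5* and *Lpar4* and lower for *Ramp3* and *Adora2a* (23.0% and 12.3% of all genes). Tip cells were higher for *Adgrl4*, *Lpar6* and *Adora2a* and lower for *Calcrl* and *Ramp3* (7.49% and 11.6%). Cap-Arterial cells were higher for *Calcrl*, *Ramp3* and *Lpar4* and lower for none (16.4% and 14.3%). Arterial cells were higher for *S1pr1*, *Calcrl* and *Lpar4* and lower for *Ramp3*, *Adora2a* and *Gpr182* (24.4% and 24.8%), with 1 UMI each of *Ramp3* and *Gpr182*.

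In the remaining clusters few genes stood apart. Proliferative cells were lower for *Ramp3* and *Lpar4* (13.6% of all genes, with 10.3% higher), Venous cells for *Gpr182* (21.0%, with 13.6% higher), and Cap-Venous cells for *Ramp3* while being higher for *Gpr182* (7.96% and 3.25%). Stalk cells had no gene past 1.5-fold in either direction (10.5% of all genes lower and 3.89% higher). With 34 or fewer *Ramp3* UMIs per cluster, the lower calls of *Ramp3* have intervals that include 1 except in Cap-Venous cells, at 0.47 (0.24 to 0.85). The lower calls of *Calcrl* in Tip cells (0.41 to 1.02) and of *Gpr182* in Venous and Arterial cells have such intervals too, and thinning moved *Calcrl* in Tip cells from 0.66 to 0.95.

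**Figure D4:**
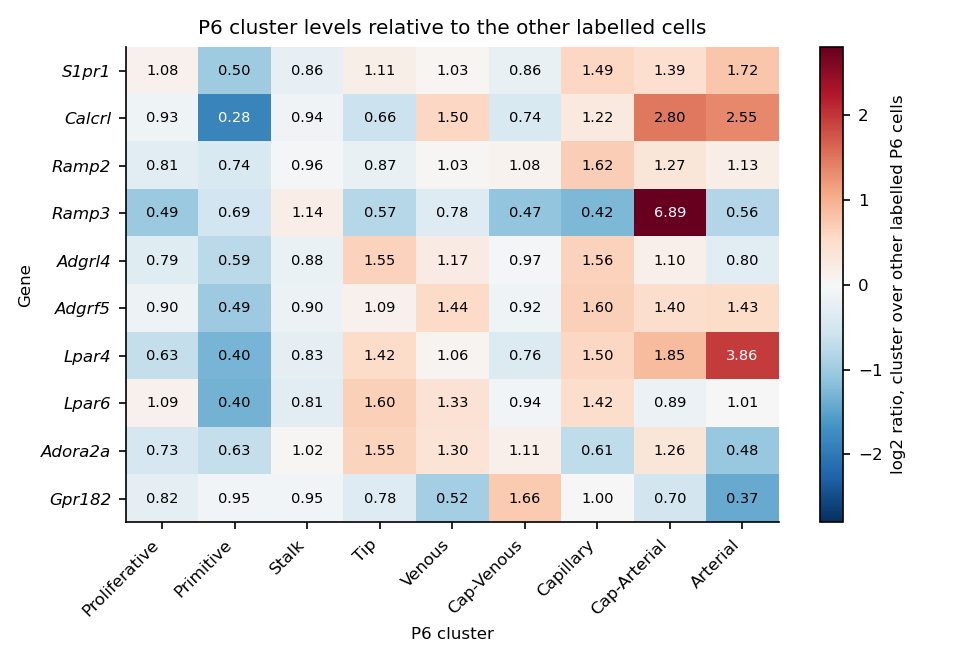
Ratio of the level in each P6 cluster (columns) to that in the other labelled P6 cells for each gene (rows), printed in the cells and coloured on a log2 scale from blue (lower) to red (higher). *Ramp3* in Cap-Arterial cells (6.89), *Lpar4* in Arterial cells (3.86) and *Calcrl* in Cap-Arterial and Arterial cells (2.803 and 2.554) are the darkest red, and all 10 ratios of the Primitive column are below 1.

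Around the adrenomedullin receptor, the ligand *Adm*, a small peptide of hypoxic and stressed endothelium, was measured at 86.6 CPM at P6 and 465 CPM at P15, a ratio of 5.37 (4.94 to 5.84), and its highest P6 cluster was Tip, at 274 CPM. *Ramp1*, the partner for CGRP, had no UMI in passing P6 cells and 3 at P15. Of the list of 8 genes of this system, 3 had a row in both libraries and 2 had 50 UMIs, the other one being *Crcp*, a subunit of RNA polymerase III that also aids CGRP receptors, at 0.89 (0.76 to 1.03). The ligand thus differed between the ages more than any of its 3 receptor genes.

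For S1P, 7 of 13 listed genes had 50 UMIs, with none at least 1.5-fold higher and 2 lower (18.8% and 11.8% of all genes). These were *Sgpl1*, the lyase that degrades S1P, at 12.2 CPM and 4.75 CPM (ratio 0.39, 0.26 to 0.58), and *Plpp3*, a membrane phosphatase for S1P and LPA, at 74.9 CPM and 32.0 CPM (0.43, 0.37 to 0.50). *Spns2*, which exports S1P from endothelial cells, stood at 0.94 (0.70 to 1.27), *Sphk2*, a kinase that makes S1P, at 1.44 (1.09 to 1.90), and *S1pr4* at 1.48 (1.16 to 1.88). *Sgpp1*, a phosphatase inside the cell that also removes S1P, stood at 1.27 (0.94 to 1.72), an interval that includes 1. For LPA, *Plpp2*, a further phosphatase, was at 10.5 CPM and 2.44 CPM (0.23, 0.13 to 0.39), and *Enpp2*, the secreted enzyme autotaxin that makes LPA, at 75.6 CPM and 65.3 CPM (0.86, 0.76 to 0.98) with its highest P6 value in Tip cells, 134 CPM. Of the other LPA genes listed, 5 were under 50 UMIs, among them the receptor *Lpar1* with 3 UMIs at P6 and 6 at P15, and 2 had no row in both libraries.

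The adenosine list had 4 of 10 genes with 50 UMIs and none past 1.5-fold. *Entpd1*, which breaks ATP down on the way to adenosine, stood at 1.25 (1.11 to 1.40) and was highest in P6 Arterial cells at 238 CPM, and *Slc29a1*, which carries adenosine into cells, at 0.84 (0.79 to 0.89). Among the chemokines and atypical receptors that *Gpr182* belongs with by function, 3 of 8 were tested. *Cxcl12* was at 97.5 CPM and 675 CPM, a ratio of 6.92 (6.41 to 7.48), and *Ackr3*, its scavenger receptor, at 6.93 CPM and 13.02 CPM (1.88, 1.33 to 2.68), so both lay on the other side of 1 from *Gpr182*, and *Ackr2* stood at 1.26 (1.10 to 1.44).

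Of 8 other adhesion receptors with 50 UMIs, 1 was past 1.5-fold, *Adgrg1* at 11.6 CPM and 32.8 CPM (2.82, 2.20 to 3.64). Of 16 other endothelial receptors, 6 were at least 1.5-fold higher and 4 lower at P15, against the 18.8% and 11.8% of all genes. Among the higher ones were *Gper1*, an estrogen-responsive receptor, at 6.90 (4.71 to 10.4), and *Gpr146* at 3.01 (2.45 to 3.71). On the lower side were *Cxcr4*, the signalling receptor for CXCL12, at 0.43 (0.35 to 0.53), and the thrombin receptors *F2rl3* at 0.44 (0.26 to 0.73) and *F2r* at 0.51 (0.42 to 0.60), all of them highest in Tip cells at P6.

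Downstream, 14 G protein subunits were tested, of which *Gnas*, *Gna12* and *Gna11* were at least 1.5-fold higher at P15 and *Gng2* lower, which is near the 18.8% and 11.8% of all genes. *Gnas*, the Gs subunit that *Calcrl* and *Adora2a* use, was at 5.36 CPM and 12.6 CPM (2.35, 1.61 to 3.49), values uncertain because several overlapping transcripts share its locus. *Gna12*, which *Lpar4* and *Lpar6* use, was at 1.55 (1.20 to 2.02), *Gna11* at 1.52 (1.40 to 1.66), and *Gng2* at 0.50 (0.43 to 0.57). Among 11 regulators of signalling, kinases and arrestins, *Rgs12* was at 3.02 (2.49 to 3.69), *Rgs2* at 0.63 (0.56 to 0.71) and *Rgs10* at 0.65 (0.37 to 1.12). Of 15 effectors further downstream, the phosphodiesterases *Pde2a* at 3.86 (2.54 to 6.04) and *Pde4b* at 1.803 (1.626 to 2.001) were higher, and the protein kinase A subunit *Prkar2b* was at 0.64 (0.38 to 1.05). The median ratio of these 3 lists was 1.10, 0.95 and 1.20, beside 1.09 over all genes.

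**Figure D5:**
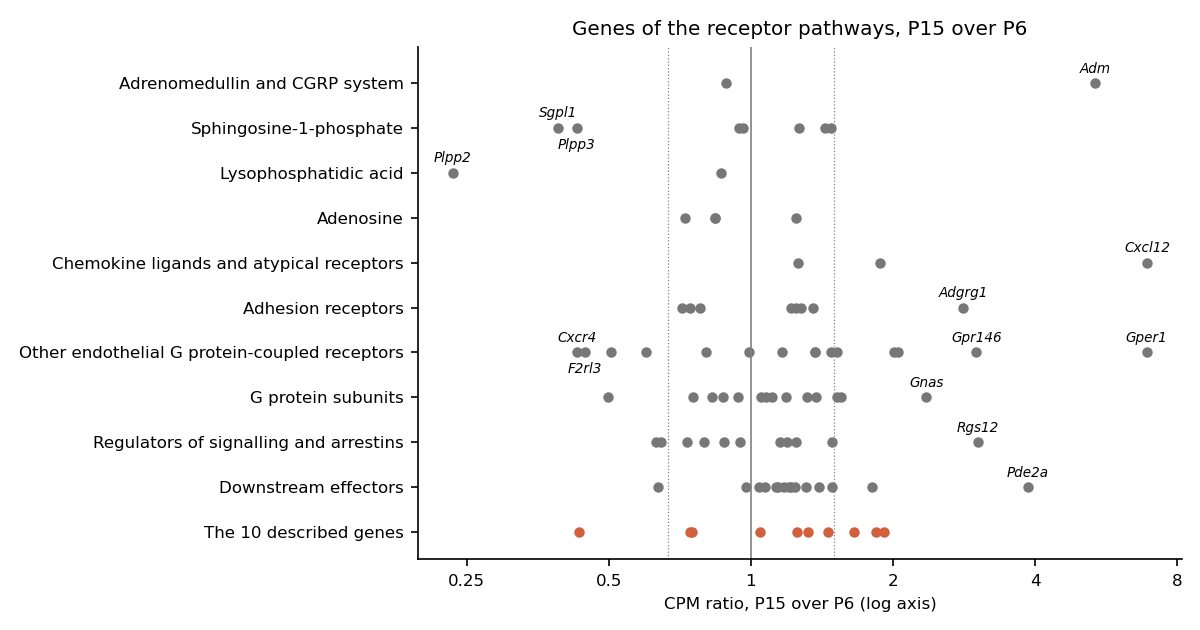
Ratio of the level at P15 to that at P6 (horizontal axis, log scale) for genes with at least 50 UMIs in 10 pathway lists (grey points) and for the 10 described genes (orange points), with dotted lines at 1.5-fold in either direction. *Adm*, *Cxcl12* and *Gper1* lie furthest right and *Plpp2* furthest left, and the 10 described genes lie between *Gpr182* and *Lpar6*.

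Genes with the most similar pattern were sought over 15 points, the clusters with at least 30 labelled cells in either library, by Pearson r of log2(CPM + 10) among 6595 genes. The points share libraries and depth, so r is a description. *Lpar6* was most like another of the 10 genes, *Adgrl4* (r = 0.92), and both were like *Myo10*, a myosin of filopodia (0.92 and 0.95). *S1pr1* was most like *Macf1*, *Fcho2* and *Ptprm* (0.96, 0.96 and 0.95), and *Calcrl* most like *Ephb4* (0.90), the venous Eph receptor. *Lpar4* was most like *Efna1*, *Cd47* and *Maged2* (0.93, 0.88 and 0.86). For *Adgrf5* the nearest was *Trim26* (0.95), for *Adora2a* *Crbn* (0.88) and for *Ramp2* *Pigk* (0.85). Between *Lpar4* and *Lpar6* r was -0.11 over the same points. *Ramp3* and *Gpr182* were under the 200 UMIs set for this comparison.

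Promoter sequence of RefSeq for GRCm38.p6 was given for 6 of the 10 genes. It is shown for *Adgrl4* and *Lpar6*, the pair with the most similar pattern among the 10, and for *Lpar4*, the paralogue that went the other way. Each line gives the 250 bases before the annotated start, 5′ to 3′ on the gene's plus strand, with capitals for GGAAG or its reverse complement CTTCC. This is a longer form of the GGAA core bound by ETS factors of endothelium, and a GGAA followed by another base is not marked.
Adgrl4: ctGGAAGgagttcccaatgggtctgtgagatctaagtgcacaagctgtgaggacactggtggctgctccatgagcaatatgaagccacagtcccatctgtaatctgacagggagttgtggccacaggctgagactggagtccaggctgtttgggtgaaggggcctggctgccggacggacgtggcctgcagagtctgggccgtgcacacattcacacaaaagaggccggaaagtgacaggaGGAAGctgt
Lpar6: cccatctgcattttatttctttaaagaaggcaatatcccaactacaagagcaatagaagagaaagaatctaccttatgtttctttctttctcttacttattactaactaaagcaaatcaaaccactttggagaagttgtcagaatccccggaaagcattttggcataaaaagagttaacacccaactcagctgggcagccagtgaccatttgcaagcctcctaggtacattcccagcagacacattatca
Lpar4: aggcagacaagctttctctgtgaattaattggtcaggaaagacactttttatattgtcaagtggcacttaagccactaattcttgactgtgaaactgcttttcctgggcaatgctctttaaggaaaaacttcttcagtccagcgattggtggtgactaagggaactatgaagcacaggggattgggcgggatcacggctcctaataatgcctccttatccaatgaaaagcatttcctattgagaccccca
The windows are chr3:151437632-151437881, chr14:73237641-73237890 and chrX:106920375-106920624. The *Adgrl4* window held 2 matches, with first bases at -248 and -9 from the start, and those of *Lpar6* and *Lpar4* held none, where 64.1% of 32817 windows of the same length held at least 1. The longer form CCGGAAG was in none of the 3, and in 6.91% of all windows. GC content was 56.8%, 39.2% and 43.6%.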

How the data were processed

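The authors deposited, for each library, a table of counts of UMIs per gene identifier and cell barcode, without normalization. The labels give Seurat 3.0 and mm10, and the aligner is not given in the sources used here. The 22734 identifiers of the P6 library and 21785 of the P15 library were named by a GENCODE table, which matched 22695 and 21745 of them. Following the criteria of the study, which do not name a doublet caller, cells were kept if they had 200 to 3500 genes and up to 5% mitochondrial UMIs and if *Hbb-bt*, *Neurod1* and *Cd63* were all at 0. No caller was run here, and cells with UMIs of both *Xist* and Y-linked genes, 0.632% at P6 and 0.730% at P15, were left out as an alternative. Cluster labels came from the study's source data, complete for P6 and in part for P15. Labels of further cells were predicted from 15 nearest neighbours on 13 principal components without the receptor genes, and matched the given label in 76.9% of labelled cells at P6 and 80.6% at P15.

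UMIs were summed by gene and cells and divided by total UMIs. Levels have exact Poisson intervals, shares have Clopper-Pearson intervals, and the interval of a ratio is the exact binomial one given both counts. A level from a count of 0 was bounded with 3 counts. Cells are not replicates, so no p-value was made. The steps were tested on simulated counts of 10778 genes, where 95.5% of intervals held the true ratio of P15 to P6. The counts were drawn from the Poisson model that the intervals assume, without variation between cells or libraries. The simulation thus checks the computation and not how the intervals hold for these data. Barcodes with pericyte or neural markers had at least 5 UMIs of either marker list, no label, and neither *Pecam1* nor *Cdh5* above 0. Named from each pathway list were up to 3 genes with the highest and up to 3 with the lowest ratio, and ligands or enzymes of a described receptor, except that 1 gene is counted in its list but not reported here. The 10 genes, the pathway lists and the alternatives were chosen with earlier results of these data known. Python 3.11.15 was used with numpy 2.4.6, scipy 1.17.1, pandas 2.3.3 and scikit-learn 1.9.0.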

Additional observations from a re-analysis of the deposited data

Results flagged for a closer look

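For 4 pairs of gene and cluster, the labelled cells lay above the other labelled cells at one age and below them at the other, with both intervals of counting error on opposite sides of 1. Such pairs were not counted over all genes, so their number is no result about these genes. The differences between the ages were not tested, since there was 1 library per age. *Calcrl* in Cap-Venous cells was at 0.744 times the other cells at P6 and 1.61 times at P15. With predicted labels the values were 0.742 and 1.03. *Ramp2* in Arterial cells was at 1.13 at P6 and 0.768 at P15, the latter from 11 cells, and with predicted labels at 1.07 and 0.807. *Adgrf5* in Cap-Arterial cells was at 1.40 and 0.716, and with predicted labels at 1.32 and 1.01. *Adora2a* in Capillary cells was at 0.611 and 1.84, and with predicted labels at 0.648 and 1.54. The side of 1 at P15 was thus the same with both sets of labels, which share the labelled passing cells, for *Adora2a*, *Ramp2* and, barely, *Calcrl*. It was not the same for *Adgrf5*.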

How the results depend on the processing

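The 3 genes higher and the 1 lower at P15 were the same genes under every barcode, labelled cells only, a mitochondrial limit of 10%, both other scalings, the mean of CPM per cell, no doublets, other UMI minima and without the cell with most UMIs. They were also the same without cells with pericyte UMIs and with the P6 cluster makeup, 2 alternatives chosen after seeing the data. Thinning to 2000 UMIs gave 2 lower genes in place of 1, adding *Lpar4*. Across the alternatives the ratio lay between 1.673 and 2.001 for *S1pr1*, 1.51 and 1.75 for *Adgrl4*, 1.51 and 2.04 for *Lpar6*, 0.355 and 0.576 for *Gpr182*, and 0.950 and 1.19 for *Ramp2*. Of pairs of gene and P6 cluster, thinning left 11 lower in place of 18, with 8 or 9 of the 10 genes tested per cluster, while higher calls went from 0 to 3 in Venous and from 3 to 4 in Arterial cells. No paired analysis was possible because each age had 1 library. Depth limits *Ramp3* and *Gpr182*, with 55 and 48 UMIs at P15.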

Other observations

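A few listed genes were at or near 0 in the passing cells of one age, too low for the comparisons above, and were chosen after their values were seen. *S1pr3*, an S1P receptor of mural cells, had 0 UMIs at P6 and 20 at P15. *Rgs4*, a regulator of G protein signalling known from pericytes, had 1 UMI at P6 and 41 at P15. *P2ry14*, a receptor for sugar nucleotides, had 0 and 19 UMIs. *Ackr1*, an atypical chemokine receptor known from venules, had 15 UMIs at P6 and 0 at P15. The pericyte marker list summed to 30.1 CPM at P6 and 348 CPM at P15 in the same cells, and its part in these values was not tested.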
